A study of Mus musculus with 6 samples.

Results

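The genes described here are the matrix metalloproteinases (Mmp), the ADAMTS metalloproteinases and ADAMTS-like proteins (Adamts, Adamtsl), and the tissue inhibitors of metalloproteinases (Timp). They were chosen by name, as every gene symbol in the deposited gene table that begins with Mmp, Timp, Adamts or Adamtsl followed by a digit. That rule found 49 of 19423 genes, made up of 21 Mmp, 4 Timp, 19 Adamts and 5 Adamtsl genes. RNA sequencing had been done on ovaries from mice of the immunodeficient strain balb/c-nude, which accepts human tumor cells, with 3 control libraries and 3 libraries from tumor-bearing mice, all labelled day 80. The tumor mice carried subcutaneous tumors of MBA-MD-231 cells, as the labels spell the line. The treatment labels end that name in 231, 232 and 233 for tumor replicates 1, 2 and 3, but the cell line label reads 231 in each. The labels do not say what day 80 is counted from, nor the age of the mice, the stage of the estrous cycle or which animals the libraries came from. Nothing therefore shows that replicates are separate animals, and the p-values below measure the spread between these samples.

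Matrix metalloproteinases are zinc enzymes that cut collagens and other proteins of the extracellular matrix, and most are made as inactive precursors. ADAMTS enzymes cut proteoglycans such as versican, trim procollagens or act on single substrates, and ADAMTS-like proteins resemble them but lack the protease domain. TIMPs bind the active enzymes and block them. In the ovary these genes are known for the rebuilding of matrix as follicles grow, rupture at ovulation and become corpora lutea.

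Of the 49 members, 44 had enough reads to be tested, and 8 of these were lower and none higher in tumor ovaries by edgeR's quasi-likelihood test at an adjusted p under 0.05. The 8 were Timp1, the protease genes Mmp11, Mmp14, Mmp15, Adamts4, Adamts7 and Adamts14, and the ADAMTS-like gene Adamtsl4. They are 18.2% of the members tested, where 7.71% of all 15787 genes tested passed, 3.91% lower and 3.8% higher. The 44 members had a median log2 fold change, tumor over control, of -0.33, against -0.01 over all genes tested; 30 had a value below 0 and 14 above. At an unadjusted p under 0.05 there were 14 members lower and 4 higher, together 40.9% of the members against 31% of all genes. The 3 control and 3 tumor libraries did not overlap in 15 members, 12 with tumor below and 3 with tumor above. That is 34.1% of the members tested against 38.1% of all genes. By direction, tumor lay below control in 27.3% of the members against 18.4% of all genes, and above it in 6.82% against 19.8%.

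The number of members that passed depended on single libraries. None passed in edgeR without control replicate 1, control replicate 3, tumor replicate 2 or tumor replicate 3, when between 0 and 5 genes of the whole table passed, while 14 were lower and 2 higher without control replicate 2 and 11 lower and 2 higher without tumor replicate 1. The counts over the whole table moved too, to 14.2% of all genes without control replicate 2 and 16.3% without tumor replicate 1. All 8 kept a log2 fold change below 0 and an unadjusted p under 0.05 in each of these 6 fits, with adjusted p of up to 0.16. DESeq2, run on the same counts, called 13 members lower and 4 higher, the 8 among them, where it called 19% of all genes. The authors' deposited table lists 17 members with q under 0.05, 13 lower and 4 higher, with the 8 among them, where 14.7% of all its genes have such a q.

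**Figure D1:**
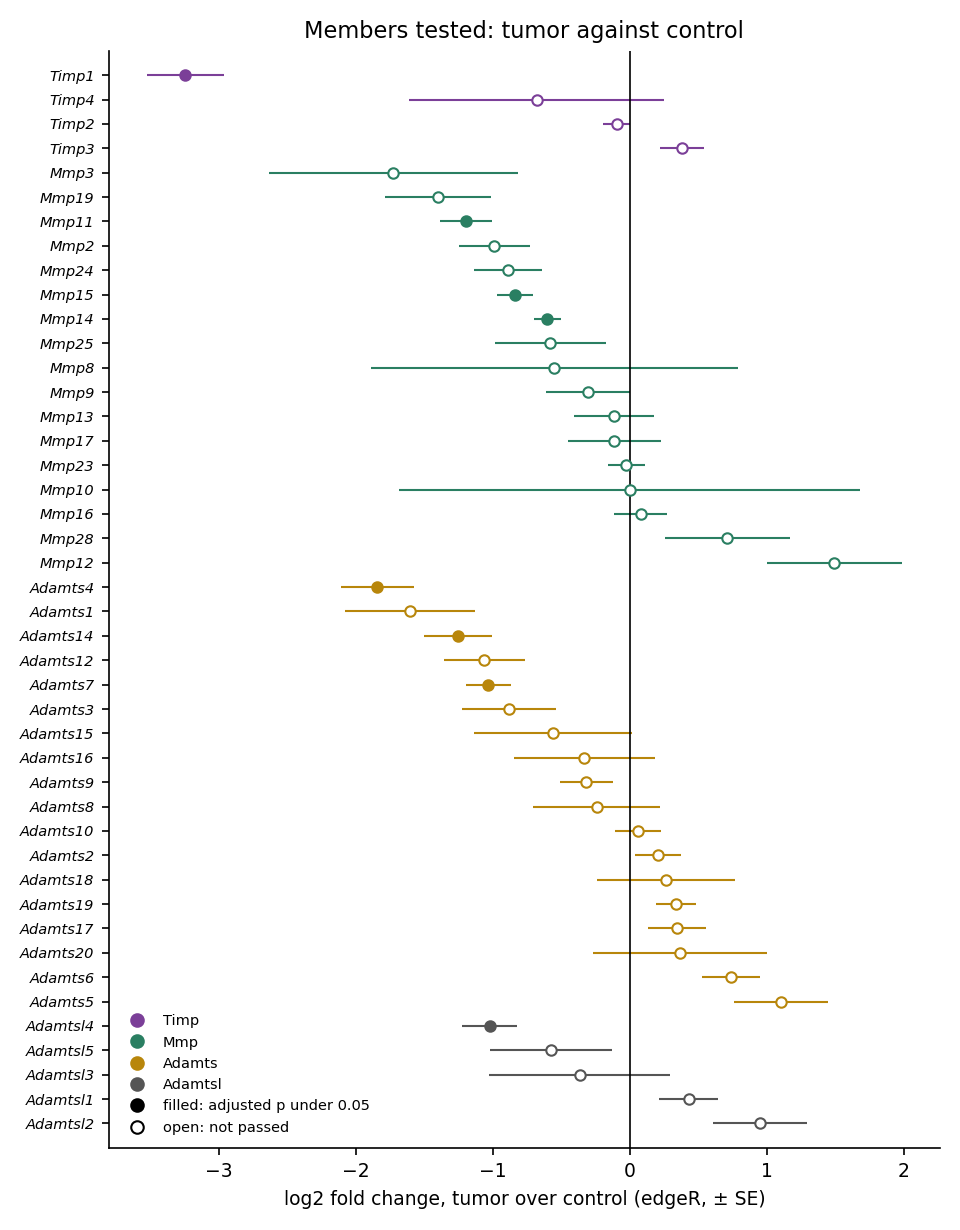
Log2 fold change of the 44 tested members, tumor over control, on the x axis with bars for the standard error; filled points passed an adjusted p under 0.05 in edgeR's test. The 8 filled points all lie below 0, from -3.25 for Timp1 to -0.60 for Mmp14, and the highest open point is Mmp12 at 1.49.

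Libraries held between 18278614 and 19238900 estimated counts. Markers of oocytes and granulosa cells were present in all 6, and 7 of 10 oocyte markers rose in tumor: the 10 together summed to between 427.9 and 582.1 TPM (a level corrected for gene length and library total) in control and between 780.2 and 1004 TPM in tumor. Other tissue moved with single libraries: 10 adipocyte markers summed to between 1019 and 1532 TPM in control libraries and to 19963, 1665 and 7684 TPM in tumor replicates 1, 2 and 3. The 7 oviduct markers summed to 1649, 1772 and 404.6 TPM in the control libraries and to 1787, 130.4 and 44.3 TPM in the tumor libraries. Of the 8 luteal markers, 3 fell, and their sum lay between 15830 and 17090 TPM in control and between 3349 and 9773 TPM in tumor. Some stromal markers also moved with the groups: 3 of 7 stromal fibroblast markers and 3 of 5 smooth muscle markers fell. The fibroblast sum lay between 2579 and 2970 TPM in control and between 1768 and 2136 TPM in tumor. The other 4 fibroblast markers did not pass, and Dcn was highest of all libraries in tumor replicate 1, at 1204 TPM. The part of these tissues in the differences below was not tested. In whole ovaries, fewer cells of a type cannot be told apart from less RNA per cell.

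Timp1, an inhibitor of most secreted metalloproteinases, had the largest fall among the members. It was measured at 205, 151 and 192 CPM (counts scaled to a common library total with TMM factors) in control replicates 1, 2 and 3 and at 12.6, 19.8 and 25.3 CPM in the tumor libraries. Every tumor library lay far below every control library. The log2 fold change was -3.25 ± 0.28 (SE), or 9.49-fold lower in tumor, with an adjusted p of 0.0206 in edgeR. Among 617 genes that fell, 24 had a larger fall, and Timp1 was number 15 of all genes tested when ordered by p. Over the 14 other settings tried its log2 fold change lay between -3.49 and -2.93. Of its 3 deposited transcripts, the leading one was present in every library, with 59.9%, 62.4% and 60.6% of the gene's count in control and 47.3%, 71.8% and 56.6% in tumor.

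Timp1 lies at chrX:20870166-20874737 on the forward strand of GRCm38, inside the span of Syn1, a synapsin gene on the other strand, with which it shares no exonic base in GENCODE M21. Its promoter is shown because it belongs to the member with the largest change. The 250 bases before the RefSeq start, at chrX:20869916-20870165 on the forward strand of GRCm38.p6, read as follows and hold no match to TGANTCA, the letters of the AP-1 motif, which reads the same on both strands.
Timp1: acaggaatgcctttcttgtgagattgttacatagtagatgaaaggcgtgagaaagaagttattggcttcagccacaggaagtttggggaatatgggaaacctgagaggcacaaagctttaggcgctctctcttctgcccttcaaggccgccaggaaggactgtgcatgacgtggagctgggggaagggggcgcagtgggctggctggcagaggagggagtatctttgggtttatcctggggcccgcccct

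The other inhibitors did not pass the test. Timp2, which also takes part in activation of the Mmp2 precursor, was measured at 464, 428 and 414 CPM in control and 386, 434 and 400.1 CPM in tumor, with a log2 fold change of -0.10 ± 0.10 (SE) and an adjusted p of 0.538 in edgeR. The groups overlapped. Timp3, the matrix-bound inhibitor, had 231, 300.4 and 241 CPM in control and 277, 348 and 380 CPM in tumor, with a log2 fold change of 0.38 ± 0.16 (SE) and an adjusted p of 0.167. Its highest control library exceeded its lowest tumor library, and 21.3% of its exonic bases also belong to exons of Syn3 on the other strand, where without known strand the reads cannot be assigned; Syn3 itself was measured at between 4.43 and 7.64 CPM. Timp4 was uneven within the tumor group and is described with the other such members.

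On the scale of TPM, which allows levels of different genes to be set side by side, Timp1 was the most abundant member in control ovaries and ranked number 9 in tumor ovaries. Its level was 429.0 ± 48.9 TPM in control and 50.7 ± 15.7 TPM in tumor (SD, n = 3 each), where Timp2 had 240.7 ± 10.1 and 251.9 ± 15.1 TPM and Timp3 110.4 ± 21.3 and 159.6 ± 21.8 TPM. Timp1 made up 56.1%, 47.5% and 56.8% of the summed TPM of the 4 inhibitors in the control libraries and 7.53%, 10.7% and 13.4% in the tumor libraries. The 4 inhibitors together summed to between 785.1 and 820.0 TPM in control and between 452.0 and 493.2 TPM in tumor, while the other 3 without Timp1 summed to between 346.0 and 412.5 TPM in control and between 418.0 and 440.5 TPM in tumor. The 21 Mmp genes summed to 837.8, 608.8 and 798.9 TPM in control and 517.5, 522.9 and 452.1 TPM in tumor. The ratio of the summed inhibitors to the summed Mmp genes was 0.979, 1.29 and 1.002 in control and 0.874, 0.943 and 1.08 in tumor, and these ranges overlap.

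**Figure D2:**
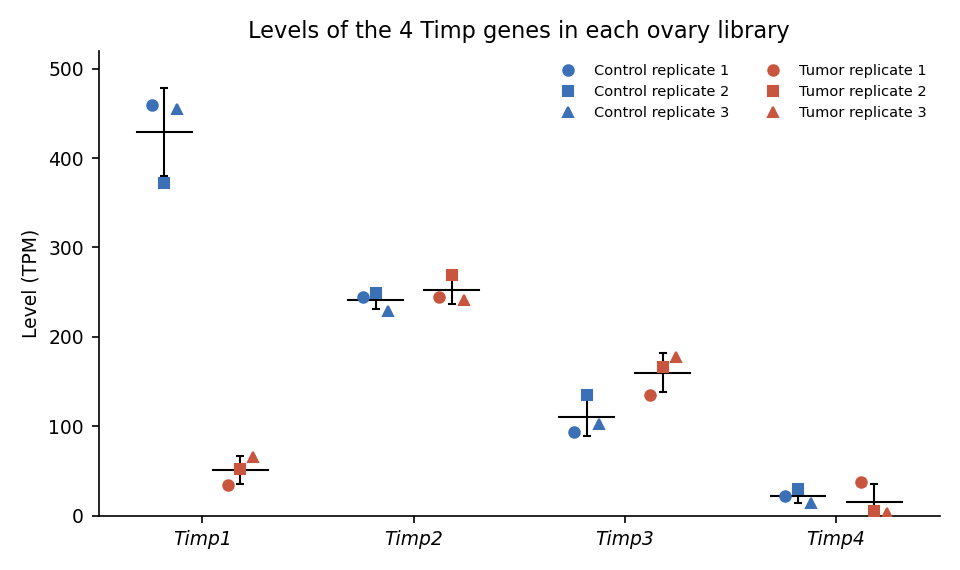
Level in TPM of Timp1, Timp2, Timp3 and Timp4 on the y axis, 1 point per library, with the group mean as a line and bars for the SD over 3 libraries. Timp1 lies between 373 and 460 TPM in control and between 34.1 and 65.2 TPM in tumor, while Timp2 stays near 250 TPM in both groups.

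**Figure D3:**
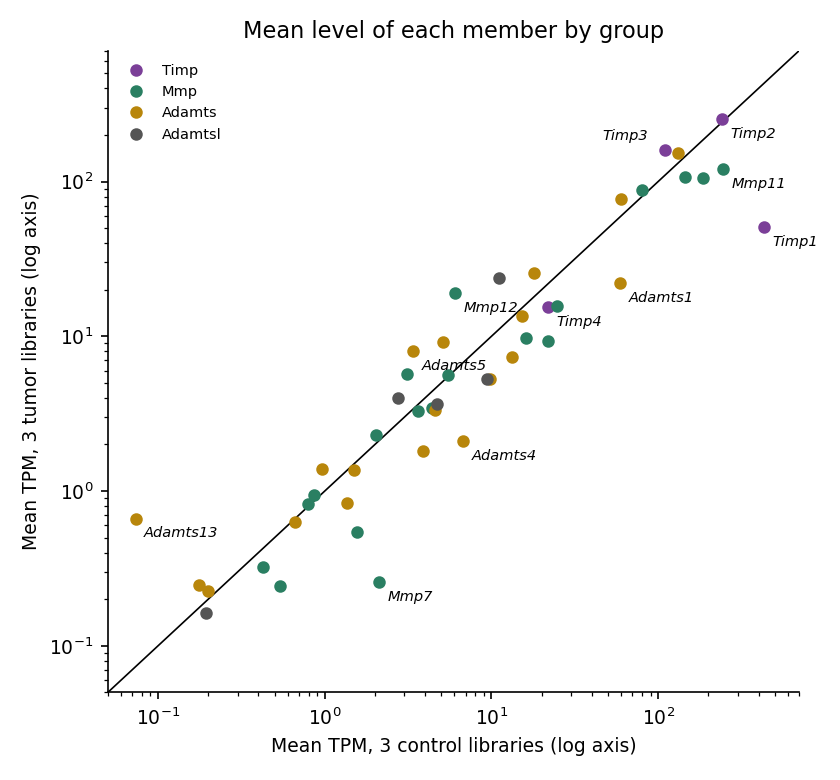
Mean TPM of each member in the 3 control libraries (x axis) and the 3 tumor libraries (y axis), both log axes, for the 47 members above 0 in both groups; the line marks equal levels. Timp1 is the point farthest below the line among abundant members, Timp2 and Timp3 lie near or above it, and Adamts13 is far above it at a low level.

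Among the secreted metalloproteinases, Mmp11 passed the test and Mmp2 did not. Mmp11, called stromelysin 3, which is activated by furin inside the cell, was measured at 324, 199 and 297 CPM in control and 109, 131 and 118 CPM in tumor. Its groups did not overlap, and its log2 fold change was -1.196 ± 0.19 (SE) with an adjusted p of 0.0355 in edgeR. By TPM it was the most abundant protease member in control, with 244.9 ± 49.3 TPM, and it had 119.9 ± 10.0 TPM in tumor (SD, n = 3 each). Mmp2, gelatinase A, which degrades type IV collagen and gelatin, was measured at 355, 177 and 325 CPM in control and 149, 148 and 134 CPM in tumor. All tumor libraries were below all control libraries, but control replicate 2 lay close to them. The log2 fold change of -0.99 ± 0.26 (SE) had an adjusted p of 0.0658 in edgeR. Leaving out control replicate 2 gave 0.0159, and leaving out any other library gave between 0.0693 and 0.215. Mmp9, gelatinase B, was measured at between 5.17 and 6.81 CPM in control ovaries and between 3.11 and 6.39 CPM in tumor, and the adjusted p was 0.546.

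Mmp19, known from the periovulatory follicle, was measured at 43.2, 18.7 and 47.0 CPM in control and 16.6, 10.0 and 14.7 CPM in tumor. Its log2 fold change of -1.40 ± 0.39 (SE) had an adjusted p of 0.0752 in edgeR. That became 0.0261 once control replicate 2 was left out, and between 0.0607 and 0.24 with any other library left out. In Mmp19, 22.3% of the exonic bases are shared with Tmem198b on the other strand. Mmp12, the macrophage elastase, had the highest positive value of the members, with 5.57, 7.38 and 3.01 CPM in control and 17.6, 20.4 and 6.98 CPM in tumor. The lowest tumor library lay under the highest control library, and the log2 fold change of 1.49 ± 0.49 (SE) had an adjusted p of 0.103. The 8 macrophage markers summed to between 461.0 and 597.8 TPM in control and between 387.6 and 602.6 TPM in tumor, and among them Gpnmb, a gene of lipid-laden macrophages, was at 11.9, 5.86 and 14.3 TPM in control and 89.8, 135.5 and 36.0 TPM in tumor. The other 7 macrophage markers did not pass, and the median log2 fold change of the 8 was -0.20. The part of macrophages in the Mmp12 values was not tested. Mmp23, a membrane-anchored member without a hemopexin domain, was measured at 66.9, 48.1 and 59.6 CPM in control and 58.7, 59.4 and 53.4 CPM in tumor. The groups overlapped, with means of 58.2 ± 9.49 and 57.2 ± 3.30 CPM (SD, n = 3 each), and its log2 fold change of -0.03 changed sign with the setting.

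Of the 6 membrane-type members, Mmp14 and Mmp15 fell and 4 did not pass. Mmp14, the membrane-type enzyme that activates the Mmp2 precursor together with Timp2, was measured at 298, 261 and 268 CPM in control and 173, 195 and 177 CPM in tumor. The log2 fold change was -0.60 ± 0.10 (SE), the smallest among the 8, with an adjusted p of 0.0355 in edgeR. Mmp15, another membrane-type enzyme, had 51.8, 57.1 and 51.9 CPM in control and 35.4, 28.1 and 26.5 CPM in tumor, with a log2 fold change of -0.84 ± 0.13 (SE) and an adjusted p of 0.0355. In both genes the control libraries lay close together and every tumor library was below them. Mmp24 also had no overlap, with 41.5, 24.2 and 38.5 CPM against 14.4, 19.9 and 22.0 CPM, and an adjusted p of 0.0746. That became 0.0314 once control replicate 2 was left out, and between 0.0854 and 0.238 with any other library left out. For Mmp16, Mmp17 and Mmp25 the log2 fold change was 0.08, -0.11 and -0.58, and the adjusted p lay between 0.375 and 0.853.

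**Figure D4:**
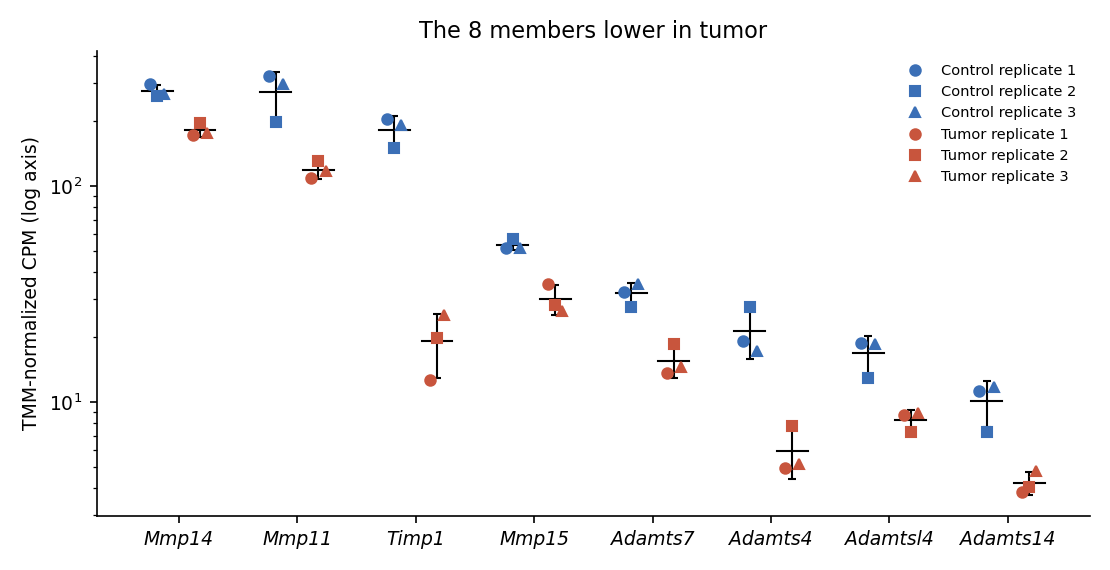
TMM-normalized CPM on a log axis for the 8 members lower in tumor by edgeR's test, 1 point per library, with the group mean as a line and bars for the SD over 3 libraries. In all 8 genes the 3 tumor points lie below the 3 control points, with the widest gap in Timp1.

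Among the hyalectanases, the ADAMTS enzymes that cut versican and aggrecan, Adamts4 fell and the other 6 did not pass. Adamts4 was measured at 19.1, 27.6 and 17.3 CPM in control and 4.94, 7.73 and 5.18 CPM in tumor, a log2 fold change of -1.84 ± 0.27 (SE) at an adjusted p of 0.0339 in edgeR. Every tumor library was below every control library. Adamts1, the progesterone-regulated protease of the ovulating follicle, was the most abundant hyalectanase gene by TPM. It had 186, 61.9 and 191 CPM in control and 33.7, 63.2 and 47.3 CPM in tumor. Control replicate 2 lay within the tumor range, and the log2 fold change of -1.61 ± 0.48 (SE) had an adjusted p of 0.087. Leaving out that library gave -1.93 at 0.026, and leaving out any other gave an adjusted p between 0.102 and 0.248. Adamts5, which also cuts versican and aggrecan, lay the other way, with 10.4, 21.0 and 9.42 CPM in control and 26.6, 35.8 and 25.2 CPM in tumor. Its groups did not overlap, and its log2 fold change of 1.10 ± 0.34 (SE) had an adjusted p of 0.0906. Leaving out control replicate 2 gave 0.0217, and leaving out any other library gave between 0.0836 and 0.275. Adamts9, with 61.6 ± 5.48 CPM in control ovaries and 49.4 ± 12.8 CPM in tumor (SD, n = 3 each), had an adjusted p of 0.314.

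Of the 3 procollagen N-propeptidases, which remove the amino-terminal propeptide of fibrillar collagens, Adamts14 fell. It was measured at 11.3, 7.27 and 11.7 CPM in control and 3.85, 4.05 and 4.80 CPM in tumor, a log2 fold change of -1.25 ± 0.25 (SE) at an adjusted p of 0.0411 in edgeR. Adamts2, the main enzyme of this kind by TPM, was measured at 232, 193 and 218 CPM in control and 189, 277 and 275 CPM in tumor, with a log2 fold change of 0.21 ± 0.17 (SE) and an adjusted p of 0.451. Its groups overlapped, as did those of Adamts3, which had a log2 fold change of -0.88 and an adjusted p of 0.143. For Adamts3 that became 0.0456 once control replicate 2 was left out, and between 0.137 and 0.388 with any other library left out. Of both members known to cut cartilage oligomeric matrix protein, Adamts7 fell, from 32.4, 27.7 and 35.4 CPM in control to 13.7, 18.5 and 14.5 CPM in tumor. That is a log2 fold change of -1.03 ± 0.16 (SE) at an adjusted p of 0.0355. Adamts12 was at 52.6, 25.4 and 51.4 CPM in control and 24.3, 18.8 and 18.8 CPM in tumor. Its log2 fold change was -1.06 ± 0.30 (SE), as large as that of Adamts7, but its adjusted p was 0.0751. Without control replicate 2 it was 0.0219, and with any other library left out it lay between 0.0598 and 0.246.

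None of the remaining ADAMTS enzymes passed. Adamts10, a protease of fibrillin microfibrils and the most abundant ADAMTS member by TPM, was measured at 262, 235 and 264 CPM in control and 210, 323 and 260 CPM in tumor, and its log2 fold change of 0.06 ± 0.17 (SE) had an adjusted p of 0.841 in edgeR. Adamts6, its close relative, had 12.1, 17.7 and 12.5 CPM in control and 19.1, 27.8 and 23.5 CPM in tumor. All its tumor libraries lay above all control libraries, with a log2 fold change of 0.74 ± 0.21 (SE) and an adjusted p of 0.0781. Values without control replicate 2 or tumor replicate 1 were 0.97 and 0.87, at adjusted p of 0.0332 and 0.0429. With any other library left out the adjusted p lay between 0.182 and 0.238. Adamts19, an ovarian member of unclear substrate, was at 37.7 ± 4.01 CPM in control ovaries and 47.7 ± 7.61 CPM in tumor (SD, n = 3 each), and the adjusted p in edgeR was 0.176. Adamts13, the protease of von Willebrand factor, was too low to be tested. Its TPM were 0.13, 0.05 and 0.04 in control and 0.95, 0.88 and 0.16 in tumor, from at most 29 estimated counts in any library, and with no filter on low counts its log2 fold change of 3.002 had an adjusted p of 0.0713.

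Among the 5 ADAMTS-like genes, Adamtsl4 fell and Adamtsl2 had the highest level by TPM. Adamtsl4, which binds fibrillin-1, was measured at 18.9, 13.0 and 18.7 CPM in control and 8.73, 7.25 and 8.89 CPM in tumor. Its log2 fold change was -1.02 ± 0.20 (SE) with an adjusted p of 0.0408 in edgeR, and it was the only one of the 8 that did not pass once gene length was corrected for, with -0.98 and an adjusted p of 0.0515. Adamtsl2, another fibrillin-binding protein, was at 16.7, 27.9 and 15.1 CPM in control and 24.1, 46.4 and 45.0 CPM in tumor. The lowest tumor library lay under the highest control library, with a log2 fold change of 0.95 ± 0.34 (SE) and an adjusted p of 0.124. Without tumor replicate 1 Adamtsl2 had 1.202 and 0.0418, and with any other library left out the adjusted p lay between 0.0538 and 0.328. Adamtsl1, Adamtsl3 and Adamtsl5 had adjusted p between 0.229 and 0.749.

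Control replicate 2 was often the control library nearest to the tumor libraries. Of the 18 members with an unadjusted p under 0.05, it was the nearest to the tumor mean in 16. The matching share over all genes was not taken. Over the whole gene table control replicate 2 was also nearest to each tumor library, by chi-square per degree of freedom between libraries. That was 106, 54.5 and 68.9 against tumor replicates 1, 2 and 3, where control replicate 3 had 138, 62.3 and 77.2. Control replicate 1 had 139, 83.7 and 104. The count of 16 need not be particular to the members. Leaving out the control library nearest to tumor widens a difference by itself, so a smaller p without it is no separate support. Cyp17a1, the theca enzyme of androgen synthesis, was at 14.98, 3088 and 24.38 TPM in control replicates 1, 2 and 3 and at 47.3, 1895 and 2738 TPM in the tumor libraries. Of the other theca markers, Insl3 was highest among controls in control replicate 2, at 293.2 TPM, while Ptch1, Hhip and Gli1 were lowest there, at 25.8, 2.76 and 27.4 TPM. Between the groups, 2 of 5 theca markers rose in tumor. Of 8 luteal markers, Lhcgr, Akr1c18, Ptgfr and Sfrp4 were highest of all libraries in control replicate 2. Star, Hsd3b1 and Parm1 were lowest there among controls. The part of theca or luteal cells in the member levels was not tested.

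A few members were uneven within the tumor group. Timp4, a tissue-restricted inhibitor, was measured at 33.9, 41.0 and 20.1 CPM in control and at 48.5, 6.34 and 4.42 CPM in tumor. Tumor replicate 1 was the highest of all libraries and tumor replicates 2 and 3 the lowest. Its log2 fold change of -0.68 ± 0.93 (SE) had an adjusted p of 0.668 in edgeR, and -2.56 with one of 0.0271 without tumor replicate 1. Mmp8, the neutrophil collagenase, was at 7.73, 5.83 and 2.64 CPM in control and 10.3, 0.480 and 0.218 CPM in tumor, with -3.92 and an adjusted p of 0.0307 without tumor replicate 1. Adamts15, another versican-cutting enzyme, was at 11.8, 14.0 and 10.5 CPM in control and 16.2, 3.62 and 4.80 CPM in tumor, with -1.52 and an adjusted p of 0.0286 without that library. Adamts16 followed the same order, with 5.09 CPM in tumor replicate 1 against 2.24 and 1.199 CPM in the others. The summed oviduct markers were also highest in tumor replicate 1 and lowest in tumor replicates 2 and 3. The same held for the sum of 6 markers of the ovarian surface epithelium and for that of 5 mast cell markers. Most of the oviduct sum was Ovgp1, at 1384 and 1362 TPM in control replicates 1 and 2 and 1180 TPM in tumor replicate 1. Pax8, Foxj1, Dnah9, Ccdc39, Tekt1 and Cfap126 were each highest in tumor replicate 1. The epithelial sum was 712.1, 732.5 and 410.9 TPM in control and 829.4, 304.5 and 202.2 TPM in tumor. Of its genes, Krt19 and Krt7 were highest in control replicate 2, and Upk3b, Msln, Krt18 and Wt1 in tumor replicate 1. The mast cell sum was 114, 158.4 and 65.7 TPM in control and 164.2, 34.4 and 22.0 TPM in tumor. Most of the mast cell sum was Hdc, at 138.2 TPM in tumor replicate 1. The other mast cell markers, Cpa3, Tpsb2, Cma1 and Mcpt4, were each highest in control libraries. Neutrophil markers were low, and the sum of 8 markers was also highest in tumor replicate 1. It was 46.9 TPM there and between 3.63 and 9.15 TPM elsewhere. Of these, S100a8 and S100a9 were at 9.6 and 25.76 TPM in tumor replicate 1, their highest values. Elane, Ngp, Retnlg, Camp and Mpo were also highest there, at 3.92, 3.07, 2.11, 2.14 and 0.28 TPM. Camp was nearly as high in control replicate 1, at 2.03 TPM. Ly6g, a defining neutrophil gene, was at 0 in all tumor libraries and at most 0.41 TPM in control. The part of oviduct tissue, surface epithelium, mast cells or neutrophils in these values was not tested.

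**Figure D5:**
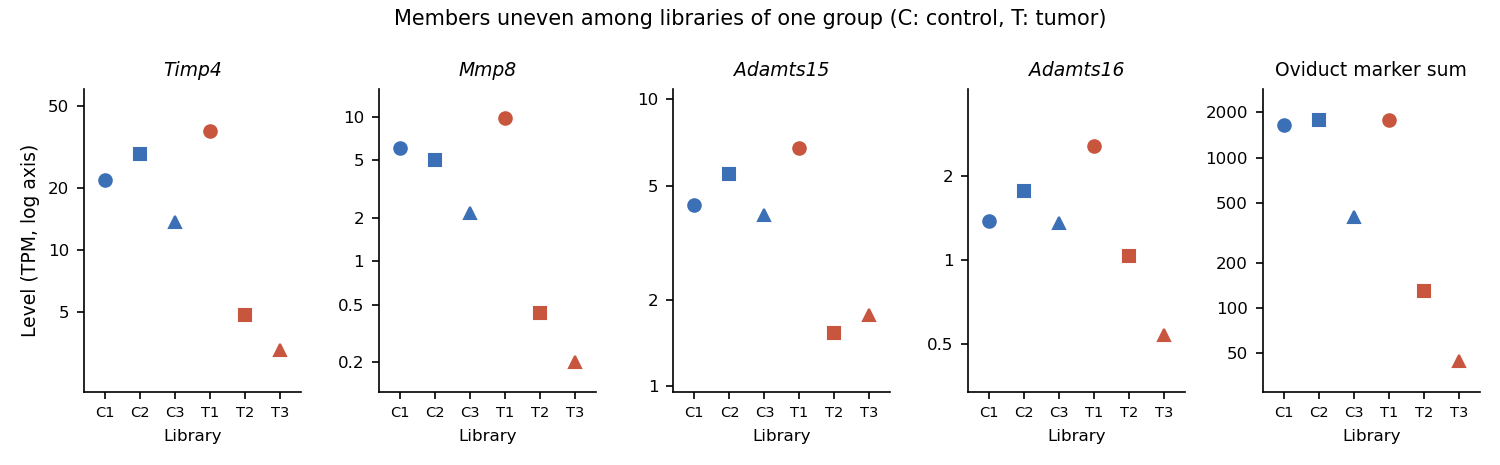
TPM on log axes in each library (C, control; T, tumor; numbers are replicates) for Timp4, Mmp8, Adamts15 and Adamts16, beside the sum of 7 oviduct marker genes. Tumor replicate 1 is the highest point in the 4 members and tumor replicates 2 and 3 are the lowest.

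The 8 members in the Mmp cluster at the start of chromosome 9 were Mmp1b, Mmp3, Mmp7, Mmp8, Mmp10, Mmp12, Mmp13 and Mmp27. Most of them were low, and none of the 5 that were tested passed. Mmp12 reached 25.6 TPM in tumor replicate 2 and Mmp8 9.74 TPM in tumor replicate 1. Apart from Mmp12 and Mmp8, none exceeded 4.39 TPM in any library. Mmp13, collagenase 3, was measured at 1.06 ± 0.223 CPM in control ovaries and 0.978 ± 0.105 CPM in tumor (SD, n = 3 each). Mmp3, stromelysin 1, was at 2.32, 0.160 and 1.78 CPM in control and 0.676, 0.213 and 0.382 CPM in tumor, and the adjusted p was 0.249 in edgeR. Mmp7, matrilysin, had 44, 18 and 0 estimated counts in control and 6, 0 and 0 in tumor, and Mmp10 had no count in tumor replicates 2 and 3, where a count of 0 allows up to 3 counts, or between 0.162 and 0.163 CPM. Mmp1b and Mmp21, the latter outside the cluster, had a single count in 1 control library each. Mmp1b has a close copy, Mmp1a, so that its reads could be split.

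The AP-1 motif TGANTCA, bound by Fos and Jun proteins and known from inducible Mmp promoters, was searched in the 250 bases before each start in RefSeq's GRCm38.p6 table, which held 37 windows of 34 members. Of these windows, 6 held a match (16.2%), all in the cluster, where 10 windows of 8 genes were present, and none of the 27 windows of the other members did. Among all 32851 windows, 6.75% held a match. None of the 6 windows belonging to members that fell held a match; Adamts4 and Adamts7 have no window in the table. The 100 bases before the start are printed for the 6 matches because they show where the motif lies, with the match in capitals.
Mmp3: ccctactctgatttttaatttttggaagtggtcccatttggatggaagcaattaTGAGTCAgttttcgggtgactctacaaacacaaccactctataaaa
Mmp10: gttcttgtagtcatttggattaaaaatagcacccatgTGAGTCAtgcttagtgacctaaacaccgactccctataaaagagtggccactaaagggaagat
Mmp13: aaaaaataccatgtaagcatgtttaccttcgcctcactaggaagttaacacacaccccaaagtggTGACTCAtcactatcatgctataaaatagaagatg
Mmp7: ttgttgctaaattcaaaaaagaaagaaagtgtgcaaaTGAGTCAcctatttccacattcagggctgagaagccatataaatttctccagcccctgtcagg
Mmp1b: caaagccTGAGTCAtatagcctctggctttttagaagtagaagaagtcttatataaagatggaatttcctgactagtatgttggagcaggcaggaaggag
Mmp12: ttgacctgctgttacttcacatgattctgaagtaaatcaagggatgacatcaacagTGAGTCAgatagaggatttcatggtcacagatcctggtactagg

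In GRCm38.p6 coordinates these lie at chr9:7445722-7445821 for Mmp3, chr9:7502242-7502341 for Mmp10, chr9:7272414-7272513 for Mmp13, chr9:7691990-7692089 for Mmp7 and chr9:7347274-7347373 for Mmp12, on the forward strand, and at chr9:7388027-7388126 on the reverse strand for Mmp1b. The first base of the match lay 46, 63, 35, 63, 44 and 93 bases before the start in Mmp3, Mmp10, Mmp13, Mmp7, Mmp12 and Mmp1b. The Mmp12 window is the second of a pair of annotated starts. A match is a description of the letters, not of binding.

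The domains in the deposited annotation follow the families. All 21 Mmp genes carry the matrixin protease domain, 19 of them also hemopexin repeats, which Mmp7 and Mmp23 lack. The reprolysin protease domain is listed for 18 of 19 Adamts genes, with Adamts9 as the exception, and for none of the 5 Adamtsl genes, while thrombospondin type 1 repeats are listed for all 24. The 8 members that fell thus include 3 with matrixin, 3 with reprolysin, 1 ADAMTS-like gene and 1 inhibitor.

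Activators, inhibitors and receptors of these enzymes, ADAM relatives, matrix genes and inducing transcription factors were taken from 6 lists. Of 70 listed genes tested, 12 were lower and 2 higher in tumor by edgeR's test, and their median log2 fold change was -0.39. Over all genes tested the shares were 3.91% lower and 3.8% higher, with a median of -0.01. The lists were drawn up with earlier results of these data known, so their difference from all genes is no separate support. Without control replicate 1, control replicate 3, tumor replicate 2 or tumor replicate 3 none of them passed. Leaving out control replicate 2 brought the adjusted p of Plau, Serpinb6a, Adam15 and Itih5, which did not pass with all libraries, to 0.0368, 0.0201, 0.0495 and 0.0257. The same fit brought A2m, Junb and Mfap4, which passed with all libraries, to adjusted p of 0.0547, 0.0549 and 0.066.

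None of 7 tested genes of plasminogen activation, which feeds into the activation of Mmp precursors, passed, with a list median of -0.61. Plau, the urokinase gene, was at 128, 71.0 and 117 CPM in control and 34.6, 58.6 and 58.7 CPM in tumor, and the adjusted p was 0.0788. Its receptor Plaur and the serpin gene Serpinb6a had log2 fold changes of -0.79 and -0.61 at adjusted p of 0.111 and 0.0851. Of 13 other activators, inhibitors and receptors, 3 fell and none rose. Ctsb, the lysosomal protease cathepsin B, fell from 1344, 1380 and 1242 CPM to 790.0, 714 and 733 CPM, a log2 fold change of -0.83 ± 0.10 (SE) at an adjusted p of 0.0277. A2m, the broad protease trap alpha-2-macroglobulin, and Bsg, which encodes the Mmp inducer basigin, fell by 1.14 and 0.58 on the log2 scale with adjusted p of 0.0451 and 0.049. Reck, a membrane inhibitor of several Mmp enzymes, had a log2 fold change of 0.18 and an adjusted p of 0.417. Of 9 ADAM genes, relatives anchored in the membrane, Adam19 fell by 1.03 on the log2 scale with an adjusted p of 0.0385, and Adam12 and Adam15 had -0.46 and -0.36 with 0.0593 and 0.0731.

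Among 12 tested genes of the hyaluronan and versican matrix, 1 fell and 1 rose, with a list median of 0.03. Acan, the aggrecan gene, fell from 3.78, 3.21 and 2.91 CPM to 0.208, 0.107 and 0.0545 CPM, with an adjusted p of 0.0228, where tumor replicates 2 and 3 lay under the 3 counts that a count of 0 allows. Itih4, an inter-alpha-trypsin inhibitor chain, rose from 1.41, 1.28 and 0.807 CPM to 13.0, 4.48 and 7.36 CPM, with an adjusted p of 0.0366, and its relative Itih5 had a log2 fold change of 0.76 at an adjusted p of 0.0804. Vcan, the versican gene, was at 108.0 ± 41.3 CPM in control ovaries and 107.8 ± 11.7 CPM in tumor (SD, n = 3 each). Of 15 microfibril genes, 4 fell and 1 rose, with a list median of -0.42. Mfap5, Eln, the elastin gene, Ltbp1 and Mfap4 fell by 1.47, 0.89, 1.04 and 0.68 on the log2 scale with adjusted p between 0.0355 and 0.0498, and Fbn2, the fibrillin-2 gene, rose by 0.69 with an adjusted p of 0.0385. Fbn1, the fibrillin-1 gene, had a log2 fold change of -0.12 and an adjusted p of 0.755.

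Of 14 tested transcription factors known to induce such genes, 3 fell and none rose, with a list median of -0.47. Runx2, a factor of the periovulatory follicle, fell from 49.3, 33.2 and 54.8 CPM to 8.78, 6.45 and 5.34 CPM, a log2 fold change of -2.74 ± 0.27 (SE) at an adjusted p of 0.0245 in edgeR. Cebpb and the AP-1 subunit gene Junb fell by 0.97 and 1.03 on the log2 scale, with adjusted p of 0.0206 and 0.0396. Pgr, the progesterone receptor gene, was at 9.35, 41.0 and 5.01 CPM in control and 19.4, 6.72 and 6.21 CPM in tumor, and the adjusted p was 0.599.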

How the data were processed

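Reads were single-end, of 50 bases. The build GRCm38.p6 and the tools RSEM 1.2.12, Bowtie2 2.2.5 and HISAT2 2.0.4 come from the submitters' processing notes, which state no roles. Estimated counts, FPKM and TPM per gene and estimated counts per transcript were deposited by the authors; 39.2% of gene counts above 0 were not whole. A DESeq2 comparison deposited by the authors holds q-values and p-values beside log2 fold changes. A further 30 expression columns, repeats or per-transcript FPKM and TPM, were not used. Counts were rounded, filtered with filterByExpr of edgeR 4.0.16 (R 4.3.3), scaled by TMM (factors 0.962 to 1.054) and tested with a robust quasi-likelihood F test, group as the only term, with Benjamini-Hochberg adjustment over 15787 genes at a threshold of 0.05. The standard error is the fold change divided by the root of F. Alternatives were DESeq2 1.42.0, limma 3.58.1 on log2(FPKM + 1) and log2(FPKM + 0.1), RLE factors, no filter, a CPM of at least 1 in 3 libraries, offsets for GENCODE M21 exonic length, a replicate block, and each library left out. On simulated counts for the tumor against control comparison (15625 genes), edgeR recovered 31% of 100 genes at a true fold of 2 and 82% of 100 at a true fold of 4, and 10.3% of its calls were unchanged genes. Limits from a count of 0 use 3 counts and cover counting error only. No 2 libraries agreed within sampling noise, with a chi-square per degree of freedom of at least 12.6.

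Members and lists were chosen with earlier results of these data known. Values in every library are given for members that passed, the 4 Timp genes and the most abundant member of each role group; from each pathway list the 3 genes with the smallest p are named. Further members and listed genes were named after their values were seen: Mmp3, Mmp7, Mmp9, Mmp10, Mmp13, Mmp19, Mmp24, Adamts5, Adamts6, Adamts9, Adamts12, Adamts15, Adamts16, Adamts19, Reck, Vcan, Fbn1, Ltbp1, Mfap4 and Pgr. Strand was taken from GENCODE M21, since the deposited strand differed from it for 4 members. Protein sequences were not used here.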

Additional observations from a re-analysis of the deposited data

How the results depend on the processing

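Of 14 alternatives, 8 changed the method and 6 left out a library. The 8 members that fell kept their direction and an unadjusted p under 0.05 in all 14, and all 8 passed in 8 of them, 7 after the length correction. Members lower numbered 13 with DESeq2 and 0 with the replicate block, and from 0 to 14 with a library left out, against 8; members higher numbered 4 with DESeq2 and from 0 to 2 with a library left out, against 0. Over all genes, against 1217, 2997 passed with DESeq2, 0 with the replicate block (4233 at an unadjusted p under 0.05) and from 0 to 2605 with a library left out. With the replicate block adjusted p of the 8 lay between 0.0796 and 0.0986. The labels do not say whether same-numbered samples are paired. Deviations of same-numbered libraries from their group means correlated at 0.237, -0.212 and 0.529, and those of other pairs between -0.561 and 0.354. With 3 libraries per group these correlations constrain each other, so they cannot decide whether the numbers pair samples. Listed pathway genes lower numbered 22 with DESeq2, 0 with the replicate block and from 0 to 17 with a library left out, against 12, and those higher 1 after the length correction, 0 with the replicate block and from 0 to 4 with a library left out, against 2. The cause of these shifts was not tested.

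Of the 44 tested members, 33 kept their direction in every alternative that tested them, and 11, none of which passed, did not. After the length correction the log2 fold change was -0.0786 for Adamts10, 0.17 for Mmp10, 0.022 for Mmp13, -0.0616 for Mmp16 and 0.14 for Mmp23. Mmp10 had 0.0074 with RLE factors, and Mmp23 had 0.0417 and 0.0428 on log2 FPKM with pseudocounts of 1 and 0.1. With a library left out the range was -0.11 to 0.20 for Adamts10, -1.06 to 0.0317 for Adamts16, -0.0116 to 0.93 for Adamts18, -0.52 to 0.0665 for Adamts8, -0.91 to 0.30 for Adamtsl3, -6.75 to 1.08 for Mmp10, -0.20 to 0.0774 for Mmp13, -0.0088 to 0.26 for Mmp16, -0.46 to 0.19 for Mmp17, -0.10 to 0.11 for Mmp23 and -3.92 to 0.0025 for Mmp8. Depth limited Adamts13, Mmp1b, Mmp7, Mmp21 and Mmp27, which were not tested.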
